A study of Homo sapiens with 4 samples.

Results

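The genes described here encode the translation initiation factors, the proteins that bring messenger RNA, initiator transfer RNA and the ribosome together before a protein is made. They were taken as the protein-coding genes of the authors' FPKM table whose symbol begins with EIF1 to EIF6, leaving out the EIF2AK kinases. This gave 49 of 14468 protein-coding genes and of 24483 genes in all. The rule reads gene names and biotype alone. By group there were 4 EIF1, 11 EIF2, 14 EIF3, 14 EIF4 and 5 EIF5 genes and 1 EIF6 gene.

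All values came from PANC-1, an established human pancreatic ductal adenocarcinoma line labelled wild-type. Cells were given 30 mM sodium lactate or water as the vehicle for 24 h. RNA bound by NSUN2, an enzyme that methylates cytosine in RNA, was collected with an antibody on beads over 4 h and sequenced as the IP, next to input RNA taken beforehand. Each condition had 1 input and 1 IP library, 4 in all, so no difference below has a replicate check and no p-value is given. No library made with a control antibody was analysed here, so RNA bound by NSUN2 and RNA carried along without it cannot be told apart.

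Initiation begins when eIF2, with its subunits alpha, beta and gamma, brings the initiator transfer RNA to the small ribosomal subunit, where eIF1, eIF1A, eIF3 and eIF5 also sit. The cap-binding protein eIF4E, the scaffold eIF4G and the helicase eIF4A load this subunit onto the message, and eIF5B joins the large subunit. eIF2B recharges eIF2 with GTP, the step blocked in the integrated stress response, while 4E-BP proteins hold eIF4E away from eIF4G when mTOR is inactive.

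Values are FPKM, fragment counts scaled to gene length and library size, and 4 values in a row give input then IP of vehicle cells, then input then IP of lactate cells. Whole reads behind them were recovered, giving library totals between 11175432 and 17626197 reads. The mitochondrial ribosomal RNA MT-RNR2 alone took 41.0%, 68.0%, 55.1% and 83.7% of reads. Nuclear genes kept 31.3%, 30.3%, 20.9% and 13.9%, and the FPKM of nuclear genes are scaled to totals that include the mitochondrial reads. Ratios are therefore given as deposited and, where it matters, relative to the median gene or with libraries brought to equal nuclear totals. Initiation factor genes held 81342, 69827, 31446 and 27822 reads, which was 1.48%, 1.69%, 1.34% and 1.32% of nuclear reads. Where a gene has no read, up to 3 could have been missed, and intervals below cover counting error only, because the libraries carry no molecular identifiers. In bulk RNA, fewer cells expressing a gene and less RNA per cell cannot be told apart.

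Of the 49 genes, 42 reached an FPKM of at least 1 in at least 1 library. The other 7 were EIF2B2, EIF2S3B, EIF3C, EIF3CL, EIF3L, EIF4A1 and EIF4E3. In the vehicle input the most abundant per length was EIF2S2, which encodes the beta subunit of eIF2, at FPKM 151. EIF5A, an elongation-promoting factor despite its name, followed at 99.7. Next was EIF4G2, a relative of the eIF4G scaffold that lacks the part binding eIF4E, at 67.9. EIF1, which guards the choice of start codon, stood at 61.1 and the helicase gene EIF4A2 at 60.6. By reads the order differed: EIF3E, a core subunit of eIF3, had the most, with 14738 reads or 18.1% of all initiation factor reads in the vehicle input. Its recovered gene length of 37761 bp puts those reads at an FPKM of only 22.1.

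**Figure D1:**
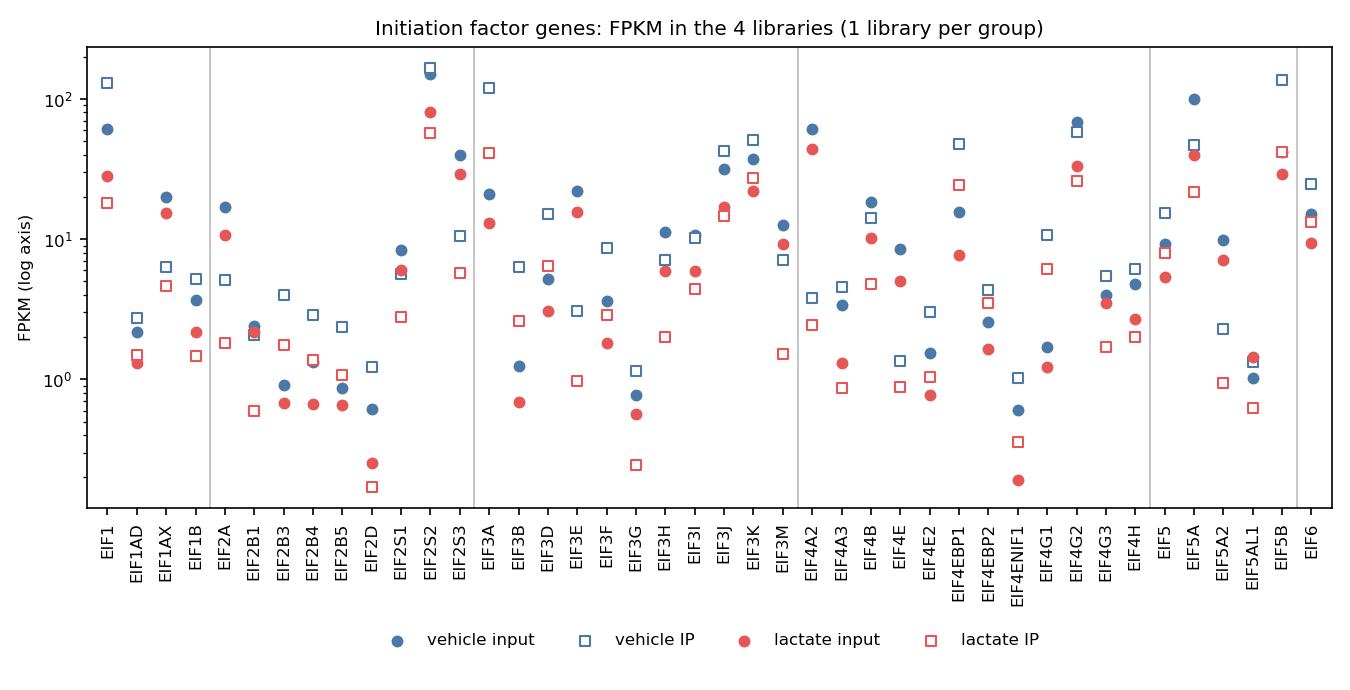
FPKM of the 42 initiation factor genes that reached 1 in at least 1 library (log axis), in vehicle (blue) and lactate (red) input (filled circles) and IP (open squares), 1 library each; grey lines separate the groups EIF1 to EIF6. EIF4A2 goes from 60.6 in the vehicle input to 3.82 in its IP, while EIF3A goes from 20.9 to 119.

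Several initiation factor messages are known to begin with a terminal oligopyrimidine tract, a C followed by a run of C and T that ties their translation to mTOR and LARP1. RefSeq start sites (GRCh38.p14) were matched for 41 of the 49 genes, and the sense strand was searched for a C at the first base followed by at least 4 further C or T. Of these 41 genes, 10 had such a start at 1 of their listed start sites or more, or 24.4%. The share was 5.14% of 27305 genes and 4.07% of all 35116 listed starts. That background takes every gene with a listed start, with no filter on biotype or level, and so is not a like set. Among protein-coding genes compared in the vehicle IP, 485 had such a start and 5624 did not. Of these, 9 and 27 were initiation factor genes. The unmatched genes were EIF2S2, EIF3A, EIF3CL, EIF3E, EIF3G, EIF3H, EIF3L and EIF4EBP1. Windows of 30 bases, 14 before and 16 from the annotated start, are shown for the 9 that reached FPKM 1 in a library, because the IP values below are set against this feature. Capitals mark the pyrimidine run from the start.
EIF4A2 (chr3:186783563-186783592, plus strand): ttgggcgccgctgtCTTTTCagtcgggcgc
EIF2S3 (chrX:24054942-24054971, plus strand): gggtgatttccttcCTCTTTTggcaacatg
EIF2A (chr3:150546773-150546802, plus strand): cacccgagcggtttCTCTTTCCgggacaac
EIF3M (chr11:32583817-32583846, plus strand): cgcggcccagttccCTTTTCCggtcggcgt
EIF4B (chr12:53006442-53006471, plus strand): tgcctcatccgggtCTTTTgcgttctcttt
EIF3K (chr19:38619174-38619203, plus strand): tccgtttccaccacCTCTTCCTgttcccgt
EIF2D (chr1:206612450-206612479, minus strand): gtttccagccgggcCCTTTTCgcggccggg
EIF3F (chr11:7987323-7987352, plus strand): tccgcttccgcctcCTTCTTTCTCgacaag
EIF3D (chr22:36529151-36529180, minus strand): cgcgcgcatgtttcCTCTTTTCCTggtttc

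These 9 genes are listed from the lowest to the highest IP enrichment in vehicle cells, from −3.68 for EIF4A2 to 1.36 for EIF3D (log2 ratio of FPKM + 1). Their median was −0.35, with 5 of 9 under 0, against 0.37 and 8 of 27 under 0 for the other matched initiation factor genes. The gene at that median is EIF4B, whose value is uncertain. In vehicle cells pseudogenes held 8.45% of the reads of EIF4B and its pseudogenes in the input and 38.9% in the IP. Over all protein-coding genes with a matched start, the median was 0.33 for the 485 with such a tract and 0.43 for the 5624 without. In lactate cells the medians were −1.49 over 8 initiation factor genes with the tract and −0.31 over 26 without, against −0.20 and −0.08 over protein-coding genes. EIF2D, at −0.10, was left out because it did not reach FPKM 1 in either library of lactate cells. The median of the 8 lies between EIF3M at −2.03 and EIF4B at −0.95, so it also rests on EIF4B. In lactate cells the pseudogene share for EIF4B was 7.65% in the input and 42.5% in the IP. A run of pyrimidines at the annotated start was found in genes well below and well above 0, and the start sites used in these cells were not measured here.

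The inputs compare RNA levels with and without lactate. Nearly all initiation factor messages stood lower in the lactate input on FPKM as deposited, but by not much more than the median gene, and none was higher by 2-fold. Over the 37 genes that reached FPKM 1 in an input, the median log2 ratio of FPKM + 1 was −0.62, against −0.43 over all 6766 genes. At least 2-fold lower were 3 genes, EIF5A, EIF1 and EIF4G2, where 6.46% of all genes were, and 0 were at least 2-fold higher, where 1.76% of all genes were. Relative to the median gene these counts were 0 and 0 (background 1.36% lower and 2.68% higher), with 9 genes above the median gene and 28 below.

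EIF5A was the lowest, at FPKM 99.7 with vehicle and 39.9 with lactate (4717 and 1198 reads). Its log2 ratio was −1.30, at percentile 0.485 of the 5562 protein-coding genes compared, and without a pseudocount it was −1.32 with a 95% interval of −1.41 to −1.23. EIF1 went from 61.1 to 28.3 (−1.08) and EIF4G2 from 67.9 to 33.0 (−1.02). EIF4A3, the helicase of the exon junction complex, followed at −0.93 (FPKM 3.41 and 1.32 in the inputs, 4.55 and 0.866 in the IP libraries) and EIF4EBP1, the mTOR-controlled inhibitor of eIF4E, at −0.92 (15.5 and 7.73). EIF2S2 stood at −0.90.

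At the other end EIF5AL1, a near copy of EIF5A, was the only gene of the 37 above 0, at 0.27 on 71 and 63 reads (FPKM 1.03, 1.33, 1.44 and 0.623). EIF2B1, the alpha subunit of eIF2B, was at −0.10 (FPKM 2.41, 2.06, 2.17 and 0.599), EIF4G3, the third eIF4G scaffold, at −0.16, EIF4G1, the main scaffold, at −0.28, and EIF1AX, which encodes eIF1A, at −0.38. The eIF5A paralogs thus lay apart, since EIF5A2 was at −0.41 with FPKM 9.80 and 7.11. With equal nuclear totals 12 of the 37 genes were above 0. EIF5A was then at −0.73 and EIF5AL1 at 0.56, and the direction turned for EIF2B1 and EIF4G3 (0.29 each), EIF1AX (0.17), EIF5A2 (0.10) and EIF4G1 (0.06).

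In vehicle cells IP and input were compared to find the messages recovered with NSUN2. The genes split widely, from EIF3A, the largest eIF3 subunit, with FPKM 20.9 before and 119 after the IP, to the helicase gene EIF4A2, with 60.6 before and 3.82 after. Of the 42 genes compared, 9 were at least 2-fold higher in the IP (27.6% of all 9099 genes were) and 8 at least 2-fold lower (15.3% of all genes). The shares among initiation factors, 21.4% and 19.0%, were near that background, so the counts alone set these genes apart from no others. The median was 0.33 against 0.44 over all genes, and 5 of the 42 genes (EIF2B3, EIF2B5, EIF2D, EIF3G and EIF4ENIF1) reached FPKM 1 only in the IP. Relative to the median gene 5 were higher and 10 lower (background 12.4% and 23.9%).

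Among the eIF3 subunits, EIF3A had FPKM 20.9, 119, 13.0 and 41.0. Its IP libraries were the high ones in both conditions. The log2 enrichment was 2.46 in vehicle cells (percentile 99.5 of 7363 protein-coding genes) and 1.59 in lactate cells (percentile 97.5 of 5892). EIF3B, a scaffold subunit that contacts the initiator complex, went from 1.24 to 6.37 and from 0.687 to 2.60, or 1.72 and 1.09. EIF3D, the subunit that can bind the cap, stood at 1.36 and 0.88 (FPKM 5.24, 15.0, 3.05 and 6.47). EIF3F, a subunit with a deubiquitinase-like fold, stood at 1.06 and 0.46 (3.61, 8.63, 1.82 and 2.89).

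EIF3E went the other way, with FPKM 22.1, 3.08, 15.7 and 0.978. Both IP libraries lay far below both inputs, and the log2 enrichment was −2.50 and −3.08, on 14738, 1586, 6626 and 561 reads. EIF3M, another subunit of the structural core, had 12.6, 7.07, 9.30 and 1.52, or −0.75 in vehicle and −2.03 in lactate cells. EIF3H, which pairs with EIF3F in the complex, had 11.2, 7.15, 5.94 and 2.01, or −0.58 and −1.21. The remaining measured subunits lay between, with EIF3K at 0.43 and 0.30, EIF3J, the loosely attached subunit, at 0.41 and −0.20, EIF3G at 0.28 and −0.33 and EIF3I at −0.06 and −0.36. Messages for eIF3 subunits covered 4.96 log2 units in vehicle and 4.67 in lactate cells, but 3.21 and 3.62 without EIF3E, whose value is uncertain, with a recovered length of 37761 bp.

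Of the eIF4 genes, EIF4G1 stood with EIF3A at the top, with FPKM 1.71, 10.8, 1.23 and 6.16. The log2 enrichment was 2.12 and 1.69, and without a pseudocount EIF4G1 led the group at 2.66 (95% interval 2.46 to 2.85) and 2.33 (2.05 to 2.60). Its relatives did not share this: EIF4G2 had 67.9, 58.0, 33.0 and 26.05, or −0.22 and −0.33, and EIF4G3 had 4.01, 5.50, 3.49 and 1.69, or 0.37 and −0.74. The counting intervals of the 3 scaffolds did not overlap in either condition.

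EIF4A2 was the lowest initiation factor gene in both conditions, with FPKM 60.6, 3.82, 43.7 and 2.44. Both inputs were high and both IP libraries low, at log2 enrichments of −3.68 and −3.70 (percentiles 0.326 and 0.458). The third paralog, EIF4A3, stood at 0.33 and −0.31. EIF4E, the cap-binding protein, had FPKM 8.46, 1.36, 5.00 and 0.887, or −2.003 and −1.67. Its binding partner and inhibitor EIF4EBP1 had 15.5, 47.9, 7.73 and 24.2, or 1.56 and 1.53, and so lay on the opposite side from EIF4E in both conditions. EIF4EBP2, a second inhibitor of this kind, had 2.58, 4.34, 1.65 and 3.49, or 0.58 and 0.76. EIF4E2, a cap-binding relative used in repression, was at 0.65 and 0.20, and EIF4ENIF1, which carries eIF4E into the nucleus, at 0.33 and 0.19. The helicase cofactors EIF4B (18.3, 14.1, 10.2 and 4.81) and EIF4H (4.77, 6.08, 2.70 and 1.995) stood at −0.35 and −0.95 and at 0.30 and −0.30.

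**Figure D2:**
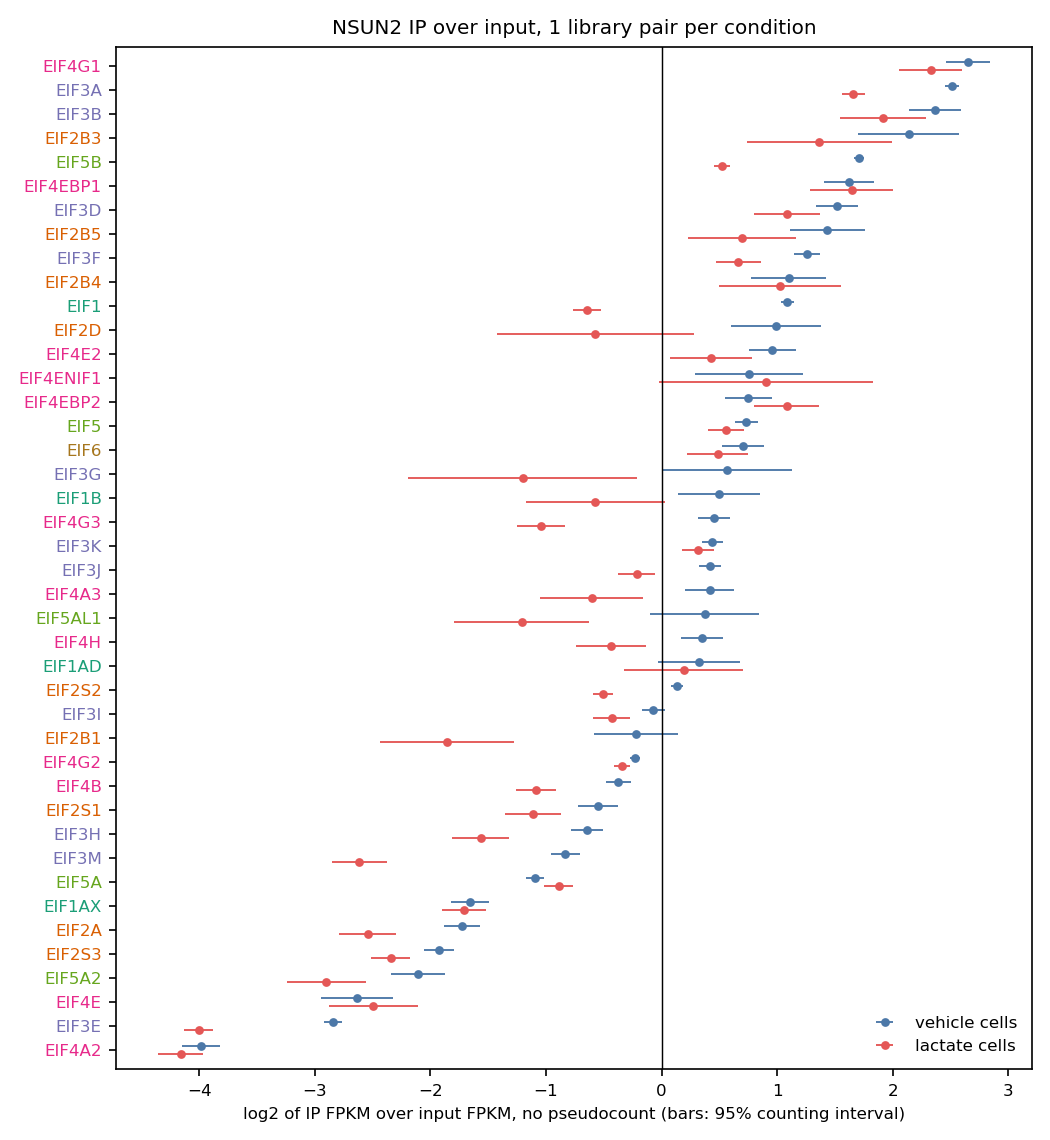
Log2 of IP over input FPKM without a pseudocount for 42 initiation factor genes in vehicle (blue) and lactate (red) cells, with 95% counting intervals as bars and gene names coloured by group; each point is 1 library pair. EIF4G1, at 2.66 and 2.33, and EIF4A2, at −3.99 and −4.16, mark the ends of the range.

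The eIF2 subunits ranged from well below input to near it. EIF2S3, the gamma subunit that binds GTP, had FPKM 39.8, 10.5, 29.1 and 5.74, or −1.83 and −2.16. EIF2S1, the alpha subunit that is phosphorylated under stress, had 8.32, 5.67, 5.99 and 2.77, or −0.48 and −0.89. EIF2S2 had 151, 166, 80.7 and 56.7, or 0.13 and −0.50, and EIF2A, an alternative carrier of initiator transfer RNA, 17.02, 5.13, 10.7 and 1.83, or −1.55 and −2.04.

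The measured eIF2B subunits were rare messages that did not go one way. EIF2B1 was below its input in both conditions, at −0.15 and −0.99, on 154, 102, 88 and 33 reads. EIF2B3 had FPKM 0.915, 4.03, 0.682 and 1.76 (1.39 and 0.71), EIF2B4 1.33, 2.86, 0.672 and 1.37 (0.72 and 0.50) and EIF2B5, the catalytic subunit, 0.866, 2.34, 0.658 and 1.07 (0.84 and 0.32). EIF2B3 and EIF2B5 in vehicle cells, and all 3 in lactate cells, reached FPKM 1 only in the IP, so that they could be compared at all depended on their IP value. EIF2D, which can deliver transfer RNA without GTP, was at 0.46 and −0.10.

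Among the remaining groups, EIF5B, the GTPase of subunit joining, had FPKM 41.8, 136, 29.0 and 41.8, or 1.68 and 0.51, and had the most reads of the 49 genes in both IP libraries (14605 and 4994). EIF5, the activator of eIF2's GTPase, had 9.20, 15.3, 5.41 and 7.95, or 0.68 and 0.48. EIF5A (99.7, 46.6, 39.9 and 21.5) was at −1.08 and −0.86 and EIF5A2 (9.80, 2.28, 7.11 and 0.950) at −1.72 and −2.06. EIF6, which keeps ribosomal subunits apart, had 15.1, 24.6, 9.46 and 13.2, or 0.67 and 0.44. EIF1AX (20.1, 6.37, 15.2 and 4.67) stood at −1.52 in both conditions. EIF1B, a paralog of EIF1, was at 0.40 and −0.37, and EIF1AD, a relative of EIF1AX, at 0.23 and 0.11.

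In lactate cells the same comparison placed most members in a like order at a lower level. Of 39 genes compared, 4 were at least 2-fold higher in the IP (EIF4G1, EIF3A, EIF4EBP1 and EIF3B; 16% of all 7170 genes were) and 9 at least 2-fold lower (23.3% of all genes). Of the 39 genes 11 reached FPKM 1 on 1 side only, among them EIF3B (only in the IP) and EIF3E, EIF4E and EIF5A2 (only in the input), so their place among the higher or lower genes is partly set by the filter. The median was −0.33 against −0.10 over all genes. Relative to the median gene the counts stayed at 4 and 9 (background 19.3% and 20.5%), whereas with equal nuclear totals they were 10 and 8 of 40 (30.5% and 14.2% of 8638 genes) and the median was 0.13, against 0.50 over all genes. All 4 higher genes were also higher in vehicle cells, and 7 genes were at least 2-fold lower in both: EIF4A2, EIF3E, EIF2S3, EIF5A2, EIF2A, EIF4E and EIF1AX. The share of all genes called in both conditions was not computed, so these counts cannot be read as particular to initiation factors. Spearman's rho between the conditions was 0.93 over 39 initiation factor genes and 0.93 over 5842 protein-coding genes, as a description across genes, which are not independent; the conditions share no library here.

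**Figure D3:**
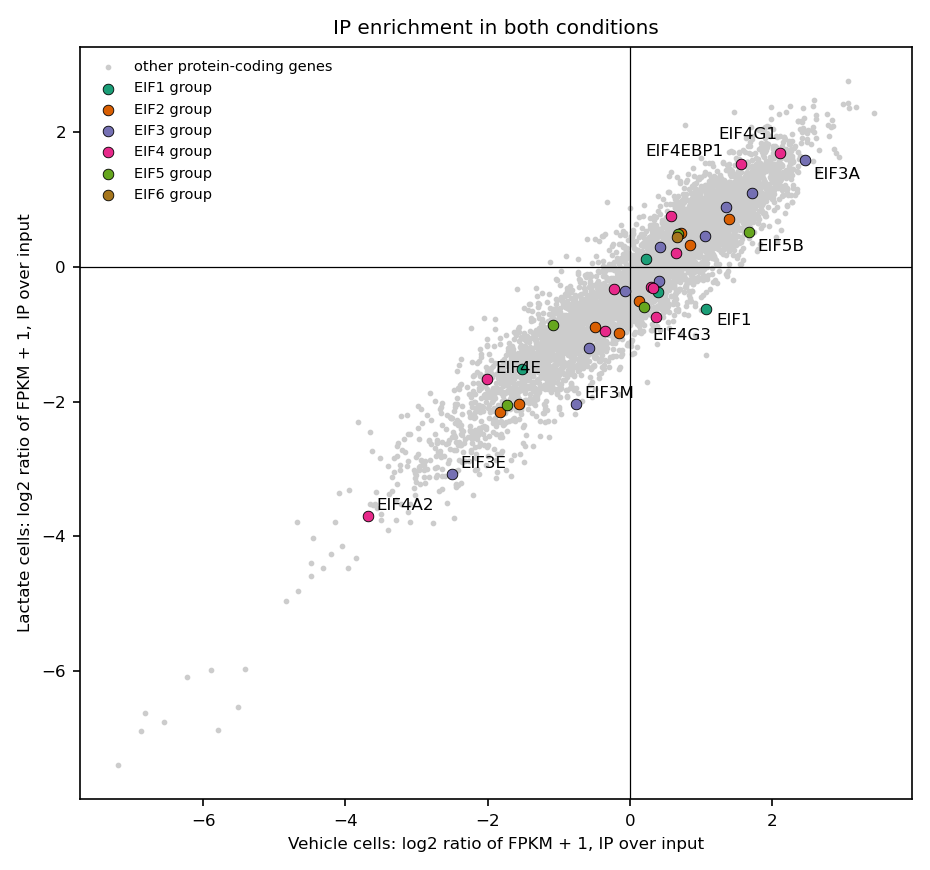
Log2 ratio of FPKM + 1, IP over input, in vehicle cells (x axis) and lactate cells (y axis) for 5842 protein-coding genes, with the 39 initiation factor genes coloured by group; 1 library pair per condition. EIF1 lies right of and below the others of similar enrichment, at 1.08 and −0.62, and EIF4A2 and EIF3E sit at the low end.

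Subtracting the vehicle enrichment from the lactate enrichment asks which of these messages changed their share in the IP with lactate. EIF1 stood furthest out: it was higher in the IP than in input in vehicle cells and lower in lactate cells. Of the 42 genes, 4 had a difference of −1 or less (EIF1, EIF3M, EIF5B and EIF4G3), where 9.56% of all 9445 genes did, and 0 had a difference of 1 or more, where 3.04% did. The median difference was −0.51 against −0.36 over all genes. Relative to the median gene only EIF1 passed 2-fold, and it alone did with equal nuclear totals (background 3.28% lower and 5.11% higher relative to the median gene).

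EIF1 had FPKM 61.1, 129.9, 28.3 and 18.1, on 3904, 6412, 1146 and 996 reads. The vehicle IP was the highest of the 4 libraries and the lactate IP the lowest. The difference of enrichments was −1.69, at percentile 0.0944 of 7413 protein-coding genes, and −1.73 without a pseudocount (95% interval −1.87 to −1.60). With equal nuclear totals EIF1 was 1.12 in vehicle and −0.05 in lactate cells, a difference of −1.17, so the gap remained while the lactate value lay close to 0.

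EIF3M differed by −1.28, and without a pseudocount by −1.79 (95% interval −2.06 to −1.52). EIF5B differed by −1.17 and EIF4G3 by −1.11, with intervals without a pseudocount of −1.26 to −1.10 and −1.75 to −1.25. EIF3A and EIF2B1 came next at −0.87 and −0.83. Above 0 were 3 of the 42 genes, EIF4E at 0.33, EIF5A at 0.22 and EIF4EBP2 at 0.18, and EIF4A2 was at −0.02. With equal nuclear totals 17 of the 42 were above 0. For EIF4E and EIF4EBP2 the counting intervals (−0.35 to 0.64 and −0.01 to 0.68) included 0, and for EIF5A it was 0.06 to 0.35.

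Setting the IP libraries directly against each other gave all 42 genes a lower FPKM in the lactate IP, with a median of −0.97 against −0.74 over 8366 genes. At least 2-fold lower were 20 of 42, or 47.6%, where 27.7% of all genes were, and 0 were higher, where 1.64% were. Of the 42 genes 9 reached FPKM 1 only in the vehicle IP (EIF2B1, EIF2D, EIF3E, EIF3G, EIF4A3, EIF4E, EIF4ENIF1, EIF5A2 and EIF5AL1), which had to place them lower with lactate; EIF3E and EIF4A3 are among the 20. With equal nuclear totals 27 of the 42 were below 0. On that scale, and relative to the median gene, 1 gene was at least 2-fold lower (EIF1) and 0 higher, with backgrounds of 2.61% and 3.66% relative to the median gene. In the eIF3 group 9 of 11 genes were at least 2-fold lower as deposited, and 0 of 11 lay above the median gene. EIF1 was at −2.78 (percentile 0.0298 of 6701 protein-coding genes), EIF5B and EIF3M both at −1.68, EIF4A3 at −1.57 and EIF2S2 at −1.53. Closest to 0 were EIF4EBP2 at −0.25, EIF4E at −0.32, EIF1AX at −0.38, EIF4A2 at −0.49 and EIF5AL1 at −0.52. This comparison shares both IP libraries with the one before it.

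The authors' peak lists give places within genes where the IP exceeded its input. In the vehicle list 45 of the 49 genes had at least 1 of 257 peaks, and in the lactate list 33 had at least 1 of 133, where 78.9% and 64.7% of all protein-coding genes had a peak. Among genes that reached FPKM 1 in a library these were 40 of 42 (90.2% of 7413 such protein-coding genes) and 32 of 42 (79.7%). No gene had a peak in the lactate list alone, 12 had them in the vehicle list alone and 4 had none: EIF3C, EIF4A2, EIF4E3 and EIF5A. The share of all protein-coding genes with peaks in 1 list alone was not computed. The lists were unequal, at 95785 and 48104 peaks, so a gene without a peak in the shorter list shows no change by that. Of the vehicle peaks in these genes 89 (34.6%) overlapped a lactate peak by at least 1 bp, and 91 (68.4%) of the lactate peaks overlapped a vehicle one. In the authors' comparison of the lists 89 peaks of these genes were common, 168 vehicle only and 41 lactate only. Over all peaks these counts were 26381, 69138 and 20965. The peak counts above take peaks of any q. At q under 0.01, 137 vehicle peaks in 36 of the 49 genes and 66 lactate peaks in 22 genes remained. Over all peaks 38627 of 95785 and 17075 of 48104 did. The share of all protein-coding genes with a peak at this q was not computed.

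By annotated feature, 98 vehicle peaks lay in exons (38.1%, against 21.0% of peaks in all protein-coding genes), 44 in 3′ UTRs (17.1% against 15.8%), 114 in introns (44.4% against 61.2%) and 1 in a 5′ UTR. The lactate list had 45, 25, 61 and 2. EIF4G3 alone carried 65 of the vehicle peaks and 49 of the intronic ones, and EIF2B3 carried 27 and 20. EIF3A, by contrast, had 12 of 14 peaks in exons and EIF5B 11 of 12. All 7 vehicle peaks of EIF3H and all 5 of EIF4E were intronic, and both genes were below 0 in the IP at gene level.

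**Figure D4:**
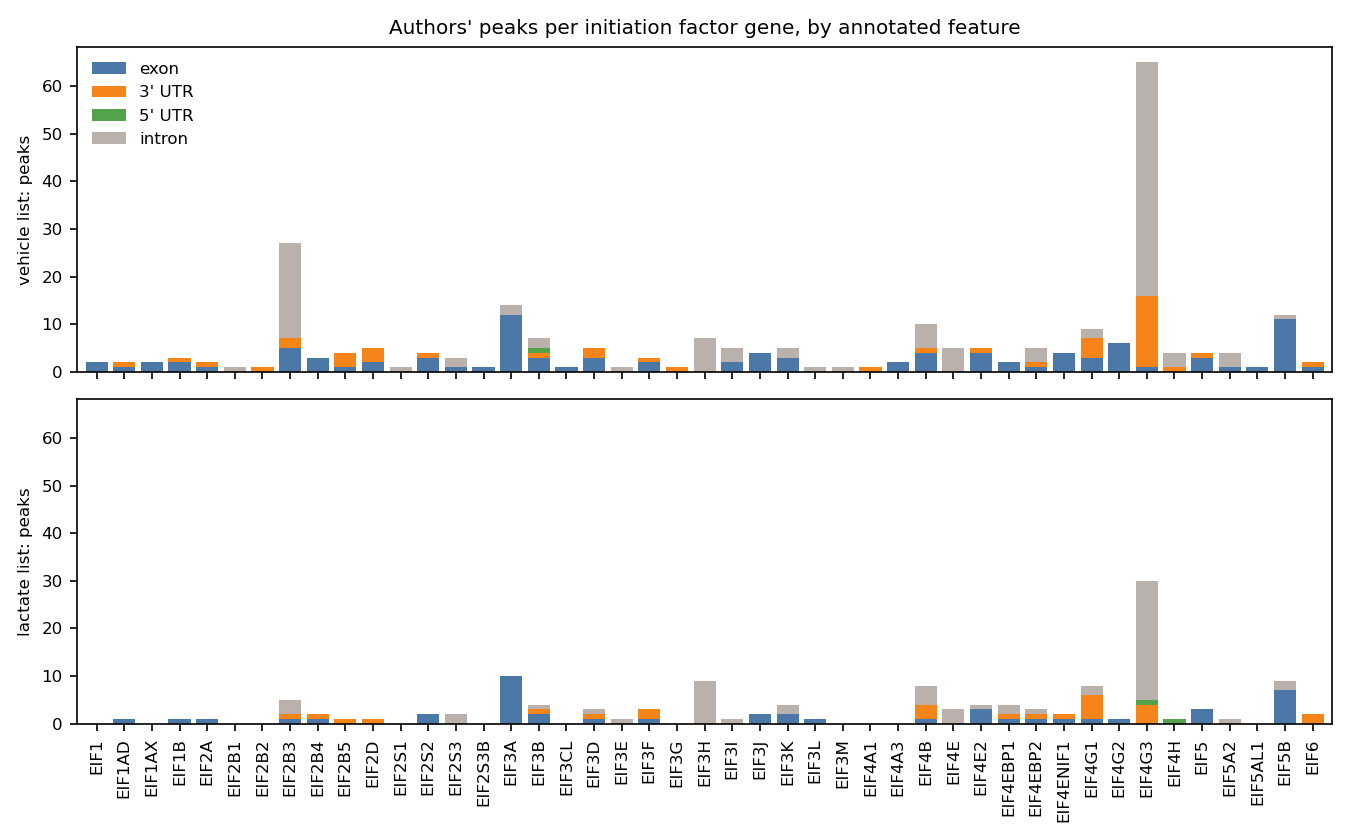
Number of the authors' peaks in each initiation factor gene with at least 1 peak, in the vehicle list (top) and the lactate list (bottom), stacked by annotated feature; both axes start at 0 and share a scale. EIF4G3 has 65 and 30 peaks, mostly intronic, whereas the 14 and 10 of EIF3A are mostly exonic.

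Among these genes the highest fold in the vehicle list, 29.97 by the authors' peak caller, was at an exon of EIF4G2 on the minus strand (GRCh38 chr11:10805796-10806233). The only EIF4G2 peak of the lactate list, at chr11:10805795-10806174, had a fold of 3.78. EIF4G3 had a 3′ UTR peak at chr1:20864342-20865377 (27.5) and EIF3A an exonic one at chr10:119049772-119050170 (19.1). In the lactate list the highest was a 3′ UTR peak of EIF4G1 at chr3:184324712-184325293, with a fold of 13.1, and EIF4G1 also had a 3′ UTR peak at chr3:184323675-184324504 in the vehicle list (12.4). EIF1 had exonic peaks in the vehicle list only, the higher at chr17:41690685-41691060 with a fold of 4.31.

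The authors' comparison of the IP libraries at peaks gave a log2 ratio M of lactate over vehicle density for 298 peaks in 45 of these genes. Their median M was −0.50, the same to 2 decimals as over all 116484 peaks, with 27 at 1 or more (9.06%, against 13.9% of all peaks) and 103 at −1 or less (34.6%, against 38.6%). At the 89 peaks common to both lists the median was −0.14 against 0.00 over all common peaks. The EIF1 peaks were at M −1.70 and −1.31, with vehicle densities of 1245 and 1362 and lactate densities of 382 and 550 on the authors' normalized scale. All 6 EIF4G2 peaks had M between −2.71 and −1.59. M compares the IP libraries alone, and EIF4G2's gene-level ratio of these libraries was −1.13 on FPKM + 1 as deposited. Its input ratio was −1.02, so the difference of enrichments, which takes the inputs into account, was −0.11. These FPKM ratios carry the fall in nuclear reads, whereas M is on the authors' normalized scale, so they are not directly comparable. Relative to the median gene, the IP ratio of EIF4G2 was −0.38 and its difference of enrichments 0.25. With equal nuclear totals they were −0.03 and 0.42. In EIF3A the 3 peaks of highest density had M of 0.40, 0.35 and 0.32, and the exonic peaks at chr10:119056560-119057200 and chr10:119059039-119059535 both had −1.03. An exonic peak of the vehicle list alone, at chr10:119043928-119044372, had −3.03 on densities of only 8.34 with vehicle and 1.02 with lactate.

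Copies of some of these genes take reads that may belong to the parent. The table held 34 pseudogenes named after 16 of the initiation factor genes, 15 of which reached FPKM 1 in a library. The sources used here do not give how reads matching several genes were assigned, so values of these parents are uncertain. EIF4A1, the main helicase gene, had 4, 34, 7 and 55 reads, against 242, 284, 64 and 78 in its pseudogenes. The FPKM of EIF4A1 never exceeded 0.696, and it overlaps the read-through gene SENP3-EIF4A1. Yet its 3′ UTR peak of the vehicle list, at chr17:7577685-7577884, had IP densities of 492 with vehicle and 451 with lactate on the authors' normalized scale. The low read counts of EIF4A1 therefore do not show that its RNA was rare, and the reason for the gap was not tested. EIF3C and its near-identical copy EIF3CL had at most 13 and 8 reads in a library (3, 13, 0 and 6 for EIF3C).

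EIF2S2P4 alone had 2073, 2299, 622 and 961 reads, and pseudogenes made up 23.5%, 28.6%, 21.3% and 30.5% of reads counted for EIF2S2 and its pseudogenes. For EIF4B the share was 8.45% and 7.65% in the inputs but 38.9% and 42.5% in the IP libraries. EIF4BP6 had 137, 490, 35 and 214 reads and stood at log2 enrichments of 1.98 and 1.68, whereas EIF4B itself stood at −0.35 and −0.95. EIF4BP3 had 42, 234, 21 and 105 reads and went the same way, at 2.17 and 1.23. For EIF1 the pseudogene share was at most 0.599%, and for EIF3F it was between 11.0% and 14.5% in all 4 libraries.

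**Figure D5:**
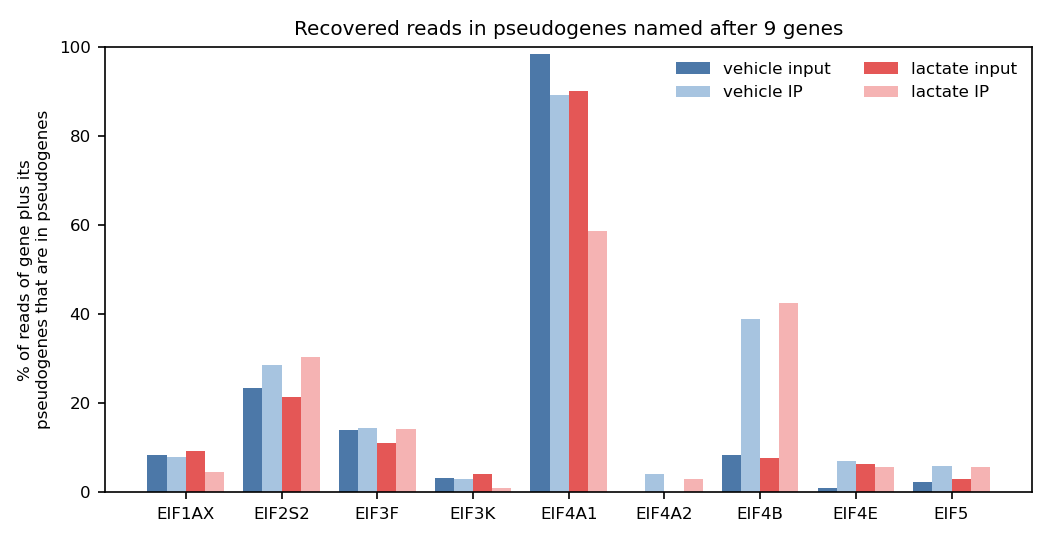
Share of reads falling in pseudogenes, of all reads counted for a gene and its pseudogenes, for the 9 genes where it reached 4% on at least 10 reads in at least 1 library, with 1 bar per library and the axis from 0 to 100%. EIF4A1 is above 58% throughout, and EIF4B is near 8% in the inputs and near 40% in the IP libraries.

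Other genes of translation were read from 4 lists. The background in the vehicle IP was 27.6% of all genes higher by 2-fold and 15.3% lower. Initiation kinases and regulators had 6 of 13 compared genes higher and 0 lower, led by MKNK2, a kinase of eIF4E, at 1.91. PPP1R15B, a regulatory subunit of an eIF2 phosphatase, was lowest at −0.84. LARP1, the binder of oligopyrimidine starts, was at 1.48. Initiation helpers and poly(A)-binding proteins had 3 higher and 5 lower of 16, from ABCF1 (2.94) to the ribosome recycling factor ABCE1 (−2.08). Elongation and termination factors had 2 higher and 3 lower of 11, with EEF2, the translocase, at 1.91 and EEF1A1, which carries transfer RNA, at −1.98. Mitochondrial translation factors had 2 higher and 0 lower of 6, led by the elongation factor TUFM at 1.88, with GFM1 lowest at −0.67. GCN1, NCBP3 and DOHH are counted among the higher genes of their lists but reached FPKM 1 only in the IP.

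In lactate cells these lists had 3 higher and 1 lower of 12, 1 and 4 of 15, 1 and 4 of 8, and 1 and 0 of 6. Of all genes 16% were higher and 23.3% lower. Here too, genes entered the counts through 1 side only. GIGYF2, among the higher regulators, reached FPKM 1 only in the IP. DDX3X and HBS1L, among the lower helpers and elongation factors, reached it only in the input. MKNK2, ABCF1, EEF2 and TUFM again led the lists at 1.73, 1.64, 1.15 and 1.32. In the inputs no member of the 4 lists passed 2-fold in either direction, and their medians were −0.38, −0.54, −0.46 and −0.62 against −0.62 for the initiation factors. In the difference of enrichments only the helper list had genes past 2-fold, 2 of 16 lower with ABCF1 at −1.30, where 9.56% of all genes were.

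Gene length and enrichment were only loosely related. Across the 42 initiation factor genes Spearman's rho of vehicle enrichment with recovered length was 0.06, and over 7363 protein-coding genes 0.08; in lactate cells these were 0.03 and 0.08. In the inputs the lactate over vehicle ratio had a rho with length of 0.22 over 37 initiation factor genes and 0.23 over 5562 protein-coding genes. These are descriptions across genes that share the same libraries.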

How the data were processed

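RNA immunoprecipitated with NSUN2 and input RNA of PANC-1 cells were sequenced from SMART-Seq v4 libraries, 1 per group. FPKM per gene were computed by the authors and deposited; HOMER 4.11.1, HISAT2 2.1.0, DiffBind, MACS2 2.2.7.1, fastp 0.20.1, bedtools 2.29.2 and the build GRCh38 are named, with no role given, per the submitters' processing notes. Not given in the sources used here are the read counter, its annotation, and its treatment of strand and of reads matching several genes. Without strand, reads of a gene and of an antisense or overlapping gene cannot be told apart. The deposited peak lists, 1 per condition, give fold enrichment, pileup signal, p-value, q-value and −log10 columns, per the file headers. The deposited table of IP libraries at peaks gives log2 values (M, and the mean level A), per the file headers.

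From the FPKM, whole reads were recovered for 72387 of 72387 values above 0, each within 1e-06 of a whole number. The smallest gene length that made all reads of a gene whole was taken. Its reads and length are therefore known only up to a common whole factor. Ratios are log2 of FPKM + 1, for genes reaching FPKM 1 in a compared library, and 2-fold means a log2 ratio of 1 or more, or −1 or less. Intervals of 95% use the recovered reads, without a pseudocount, and cover counting error only. Equal nuclear totals divide FPKM by the library's share of reads in nuclear-encoded genes. Peak overlap was computed from coordinates (at least 1 bp). The steps were tested on simulated data, where recovered reads were checked only up to that common factor. They were run with python 3.11.15, numpy 2.4.6 and pandas 2.3.3. Genes were named by a rule: the 5 highest and 5 lowest initiation factor genes of each comparison, a set of named subunits, and the highest and lowest gene of each of 4 lists. EIF4BP3, EIF4BP6, EIF2S2P4, LARP1, GCN1, NCBP3, DOHH, GIGYF2, DDX3X and HBS1L were named after their values were seen. The initiation factor genes and lists were chosen with earlier results of these data known.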

Additional observations from a re-analysis of the deposited data

Results flagged for a closer look

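Between the conditions 8 of 39 initiation factor genes stood on opposite sides of 0 in their log2 ratio of IP over input, each from 1 library pair per condition, and the differences were not tested. All 8 were above 0 in vehicle and below 0 in lactate cells, as was the median over all genes (0.44 and −0.10). The share of all genes on opposite sides was not computed, so the 8 cannot be read as particular to these genes. EIF1 went from 1.08 to −0.62 and EIF4G3 from 0.37 to −0.74. EIF5AL1 went from 0.20 to −0.59, EIF2S2 from 0.13 to −0.50 and EIF1B from 0.40 to −0.37. EIF4A3 stood at 0.33 and −0.31, EIF4H at 0.30 and −0.30, and EIF3J at 0.41 and −0.20. Relative to the median gene 3 of the 39 genes were on opposite sides, EIF1 among them at 0.63 and −0.52. With equal nuclear totals EIF1 was at 1.12 and −0.05.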

How the results depend on the processing

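Of the recomputed values, 59 stayed close to the reported one, 37 moved and 2 turned sign. A count was called close when equal or within 1.5-fold, and a median when it differed by less than 0.1. By this rule some sizeable shifts count as close. Genes lower between the IP libraries went from 20 to 30 with a pseudocount of 0.1 (54.4% of all genes). At q under 0.01, genes with a vehicle peak went from 45 to 36 and with a lactate peak from 33 to 22. Both reversals were medians: the vehicle IP median became −0.11 relative to the median gene, and the lactate IP median became 0.13 with equal nuclear totals; these follow from how each scaling is built. In the inputs, the 3 genes at least 2-fold lower became 1 with a pseudocount of 5 (0.990% of all genes), 0 relative to the median gene (1.36%) and 0 with equal nuclear totals (1.79%), and the median became −0.75 (pseudocount 0.1), −0.39 (pseudocount 5), −0.47 (no filter), −0.19 (median gene) and −0.12 (equal nuclear totals). In the vehicle IP, the genes at least 2-fold higher went from 9 to 5 with a pseudocount of 5 (6.11% of all genes) and to 5 relative to the median gene (12.4%), and the median became 0.17 with a pseudocount of 5 and 0.22 for FPKM of at least 5. In the lactate IP, the higher genes became 7 (pseudocount 0.1; 28.3% of all genes), 2 (pseudocount 5; 1.53%) and 10 (equal nuclear totals; 30.5%), the lower genes 14 (pseudocount 0.1; 32.8%), and the median −0.16 (pseudocount 5) and −0.62 (FPKM of at least 5).

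Between the IP libraries, the 20 lower genes became 6 with a pseudocount of 5 (6.0005% of all genes) and 1 relative to the median gene (2.61%) or with equal nuclear totals (3.203%), and the median became −1.23 (pseudocount 0.1), −0.61 (pseudocount 5), −1.12 (FPKM of at least 5), −0.22 (median gene) and −0.078 (equal nuclear totals). For the difference of enrichments, the 4 lower genes became 10 (pseudocount 0.1, 22.2% of all genes), 2 (pseudocount 5, 1.05%), 1 (median gene, 3.28%) and 1 (equal nuclear totals, 3.96%), and the median −0.62, −0.22, −0.15 (median gene) and −0.072 (equal nuclear totals). At q under 0.01 the shared vehicle peaks were 52 of 137 (38.0%) in place of 89 of 257 (34.6%). The share over all peaks at this q was not computed. The median M became −0.0012 after subtracting the median of all peaks and −0.37 at peaks of at least median A.

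No paired analysis was possible because each group had 1 library. Leaving out a library was likewise not possible. Of the genes compared, EIF2B1, EIF2B3, EIF2B4, EIF2D, EIF3G, EIF4ENIF1 and EIF5AL1 had between 13 and 39 reads in their lowest library, and their order is limited by counting error.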
